A study of Mus musculus with 9 samples.

Results

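Accessible chromatin was mapped at 8 genes that encode the receptors for vascular endothelial growth factor (VEGF) and for the angiopoietins, together with 1 angiopoietin, in brain endothelial cells (ECs) of young and old mice with and without Klf4. The genes were Flt1, Kdr, Flt4, Nrp1, Nrp2, Tek, Tie1 and Angpt2, and a peak belonged to a gene when the annotation deposited with the peak list named that gene, which is the one whose transcription start site (TSS) lies nearest to the peak centre. Peaks of all libraries that shared at least 1 bp were merged into regions. Of 92495 regions in all, 129 belonged to the 8 genes, and 11 of these 129 held a peak in every one of the 9 libraries (8.53%, against 5.27% of all regions).

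VEGF signals through receptor tyrosine kinases on ECs. Kdr (VEGFR2) carries most of the signal for growth, survival and permeability, Flt1 (VEGFR1) binds VEGF tightly and limits what reaches Kdr, and Flt4 (VEGFR3) binds VEGF-C and VEGF-D and is best known from lymphatic vessels and sprouting tip cells. Nrp1 and Nrp2 are co-receptors for VEGFs and for semaphorins. Tek (Tie2) is the angiopoietin receptor that keeps vessels quiescent, Tie1 is its partner without a well-defined ligand of its own, and Angpt2 is a Tek ligand made by ECs that can oppose Angpt1 in activated vessels. In brain ECs these systems affect how stable the blood-brain barrier is, and not all of them act in the same direction.

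The 9 libraries came from flow-sorted brain ECs of mice on the C57BL/6J background and were made by Omni-ATAC-seq, an assay whose Tn5 transposase cuts open chromatin and tags the pieces for sequencing. The study used male and female mice, and the sex behind each library was not used here. All mice carried CDH5-CreERT2, a tamoxifen-inducible Cre under the VE-cadherin promoter that is active in ECs, and both genotypes received tamoxifen at 8 wk of age. EC-K4KO mice also carried floxed Klf4, which encodes a transcription factor of the endothelium, whereas WT Cre mice (CdH5CRE in the labels, with EC-K4KO spelled ECK4KO) kept Klf4 intact. The groups were young WT Cre (n = 2), young EC-K4KO (n = 3), old WT Cre (n = 2) and old EC-K4KO (n = 2), with young mice aged 4 to 6 mo and old mice aged 20 to 23 mo in the cohorts of the study. Whether 1 library holds cells of 1 mouse or of several is not given in the sources used here, so the p-values measure the spread between these libraries.

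The peak lists differed in length, from 6157 and 9598 peaks in young WT Cre to between 23848 and 45026 in the other groups, and the number of reads behind each list is unknown. Promoters of 5 to 7 of 10 endothelial marker genes held a peak in each library, with those of Cldn5 and Erg called in all 9 and that of Emcn in none. None of 10 microglial markers had a promoter peak in any library, whereas 3 to 5 of 10 pericyte and mural markers had one in old EC-K4KO, 0 to 2 in old WT Cre and 0 in both young groups, and those of Rgs5, Abcc9, Notch3 and Vtn had none in any library. Of 10 neuronal markers, 3 to 4 had one in old EC-K4KO, 1 in old WT Cre, 1 to 2 in young EC-K4KO and 0 in young WT Cre. For astrocyte markers the counts in the same order were 2 to 3, 1 to 2, 0 to 1 and 0 to 1. For oligodendrocyte markers they were 1 to 2, 1, 0 to 2 and 0. Within the 6157 strongest peaks of each library no promoter of any pericyte, microglial, astrocyte, oligodendrocyte or neuronal marker held a peak, against 4 to 6 of 10 endothelial ones. Some of these strong peaks did lie nearest astrocyte markers, 2 in each old EC-K4KO library, 1 to 2 in old WT Cre, 0 to 1 in young EC-K4KO and 0 in young WT Cre. Pericyte, oligodendrocyte and neuronal markers had at most 1 such peak in a library. The part of these other cell types in the results that follow was not tested. Between 5 and 25 peaks of each library lay nearest Klf4 itself, but the position of the floxed segment is not given in the sources used here, so they do not check the deletion. A prefix in the peak names differed between all young and all old libraries, so that prefix and age cannot be told apart.

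The sequences below are those of 3 accessible regions described here, from the GRCm38.p6 (mm10) reference. Capitals mark the letters of motifs recognised by families of endothelial factors, searched on both strands, namely CCGGAAG and the variant CAGGAAG for ETS factors, TGTTTAC for FOX, CCNCACCC for KLF, NAGATAA for GATA and TGANTCA for AP-1. None of these motifs overlapped another in the stretches shown. The first is the centre of the Tek region in intron 1 (chr4:94746495-94746794, + strand), which held the best median rank of any region away from a TSS. The second is the centre of the Kdr region at 55.5 kb downstream of the TSS, beyond the end of the gene (chr5:75922785-75923084, + strand). The last is the stretch of 250 bases directly upstream of the RefSeq start of Flt1, written along the gene (chr5:147726012-147726261, - strand).
Tek intron 1: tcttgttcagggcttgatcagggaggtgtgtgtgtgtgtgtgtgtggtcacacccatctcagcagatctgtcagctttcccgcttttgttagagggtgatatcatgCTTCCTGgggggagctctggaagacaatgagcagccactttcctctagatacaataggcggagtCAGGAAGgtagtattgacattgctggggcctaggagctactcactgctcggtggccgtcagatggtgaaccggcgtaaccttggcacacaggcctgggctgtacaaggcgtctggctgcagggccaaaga
Kdr 55.5 kb: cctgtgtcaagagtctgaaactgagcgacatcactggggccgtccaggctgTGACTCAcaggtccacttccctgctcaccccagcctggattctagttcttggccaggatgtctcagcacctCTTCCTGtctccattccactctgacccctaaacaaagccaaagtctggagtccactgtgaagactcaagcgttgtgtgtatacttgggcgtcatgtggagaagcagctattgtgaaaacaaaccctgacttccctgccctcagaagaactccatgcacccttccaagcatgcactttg
Flt1 promoter: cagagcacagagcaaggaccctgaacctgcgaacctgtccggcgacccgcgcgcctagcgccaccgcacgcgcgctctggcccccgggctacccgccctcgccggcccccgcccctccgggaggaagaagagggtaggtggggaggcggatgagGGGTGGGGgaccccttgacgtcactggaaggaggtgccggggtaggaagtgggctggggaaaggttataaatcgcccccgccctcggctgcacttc

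The Tek stretch held the ETS letters CAGGAAG on both strands, and 25.7% of the 1805 windows of 300 bases at shared regions outside promoters held them. The Kdr stretch held CAGGAAG and the AP-1 letters TGANTCA, and 13.7% of those windows held the latter. The Flt1 promoter held the KLF letters CCNCACCC on the strand opposite to the gene, as did 14.9% of 32851 stretches of 250 bases upstream of RefSeq gene starts. A match describes letters in these windows and is not evidence of binding.

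The 129 regions were spread unevenly over the 8 genes. Flt1 had 36 regions, 24 of them in the gene body, and Kdr had 31, of which 14 lay downstream of the gene. Nrp2 had 23 regions, Tek and Angpt2 14 each, Flt4 7, Tie1 3 and Nrp1 1. Each gene had exactly 1 region over its own TSS, and the other 121 comprised 57 within gene bodies, 48 upstream and 16 downstream. By the class in the deposited annotation, 73 of the 129 regions were intronic, 44 intergenic, 6 exonic, 5 promoter-TSS and 1 at a transcript end. An intronic class need not mean an intron of the named gene. Nrp2 had 9 regions in its body and 13 upstream, as far as -522 kb, all intronic by class except that at -24.1 kb. The 7 upstream regions of Angpt2 were all intronic by class. Regions away from the TSS thus outnumbered those over it. This is a count of regions and not of how accessible they were, and 40 of the 129 were called in only 1 library. The share of each class among all regions was not computed.

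**Figure D1:**
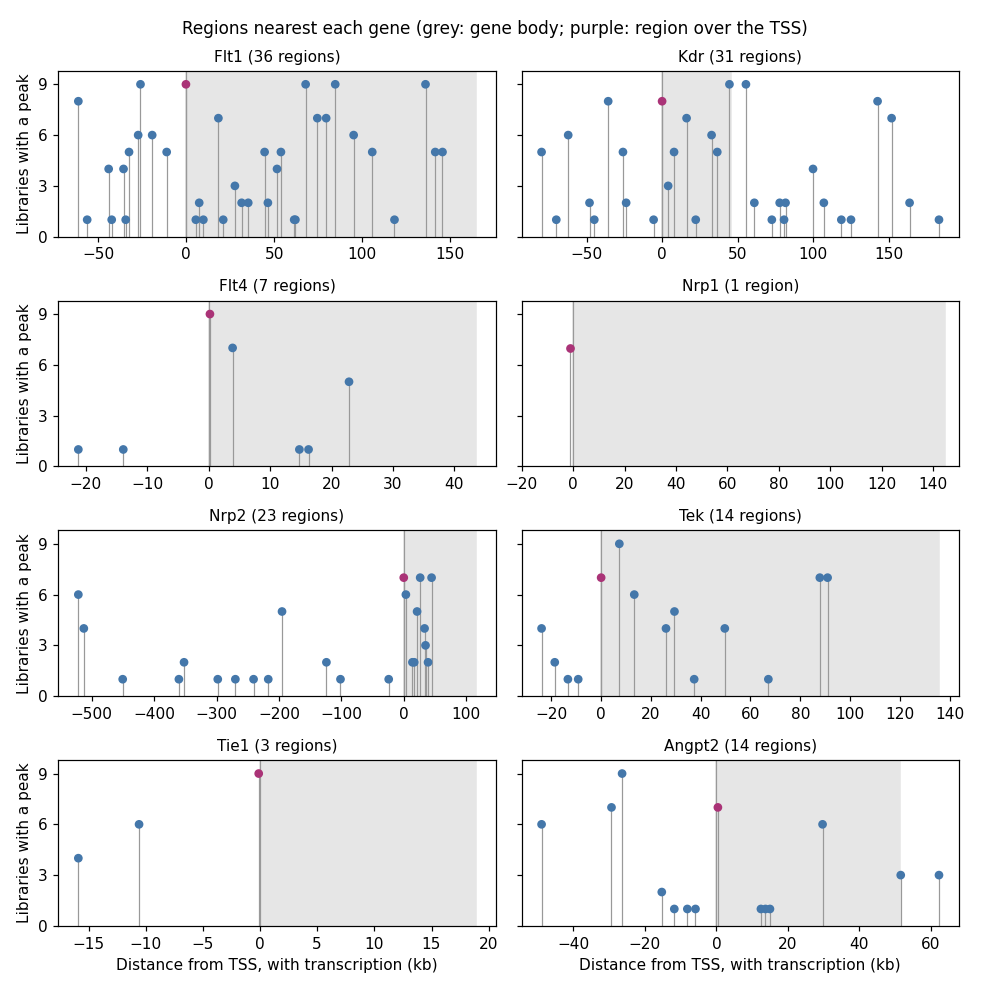
Regions of each of the 8 genes, with distance from the TSS in kb along the direction of transcription on the x axis and the number of libraries with a peak, from 0 to 9, on the y axis. Grey marks the gene body and purple the region over the TSS, and each gene except Nrp1 had further regions, the most for Flt1 (36) and Kdr (31).

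The Nrp1 count was set by the annotation rule. The body of Nrp1 (chr8:128358604-128503363) held another 33 peaks in 11 regions whose deposited gene name was Mir1903, a microRNA gene with a start nearer to these introns. There were 0 such peaks in young WT Cre, 0, 3 and 4 in young EC-K4KO, 6 and 5 in old WT Cre and 9 and 6 in the old EC-K4KO pair. The best shared of them lay in intron 6 of Nrp1, at 79 and 92.1 kb from the TSS, each with a peak in 6 libraries. When regions were assigned by overlap with the gene body or 5 kb upstream of it, 83 regions belonged to the 8 genes, 65 of them also by name, and none of the 18 added ones held a peak in every library.

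The number of peaks near the 8 genes followed the length of the list. It was 17 and 17 in young WT Cre, 42, 48 and 61 in young EC-K4KO, 77 and 68 in old WT Cre and 96 and 87 in the old EC-K4KO pair, so that the 4 groups did not overlap. As a share of the list, however, the peaks took 0.276% and 0.177% in young WT Cre and from 0.175% to 0.223% in the other libraries. Among the 6157 strongest peaks of each library, the number was 17 and 10 in young WT Cre, 11, 12 and 11 in young EC-K4KO, 10 and 8 in old WT Cre and 11 and 11 in the old EC-K4KO pair, and the groups then overlapped.

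**Figure D2:**
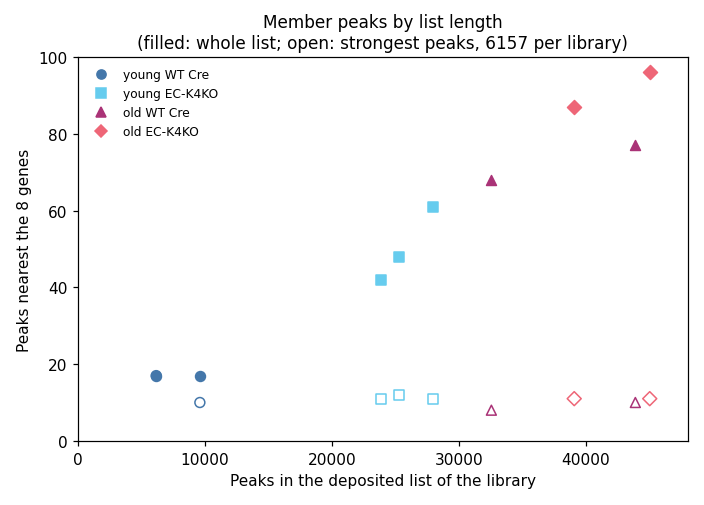
Number of peaks nearest the 8 genes (y axis) against the number of peaks in the list of each library (x axis), with 1 filled point per library for the whole list and 1 open point for its 6157 strongest peaks. The filled points climb from 17 to 96 with list length, whereas the open points stay between 8 and 17.

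At the receptors of VEGF, the TSS region of Flt1 (chr5:147725486-147726676) held a peak in all 9 libraries. Its rank in the library's own list, in percent from the strongest, was 19.3 and 13 in young WT Cre, 4.95, 6.82 and 5.28 in young EC-K4KO, 7.96 and 8.29 in old WT Cre and 5.06 and 5.65 in the old EC-K4KO pair. The promoter of Kdr (chr5:75977714-75978842) ranked at 93.7% in young WT Cre replicate 1, had no peak in replicate 2 and ranked between 18.4% and 42.6% in the other 7 libraries, whose lists were longer. Among the 6157 strongest peaks of each library it was called in 1 library, young WT Cre replicate 1. That list holds only 6157 peaks, so its weakest peaks stay after the cut. The list ranks therefore cannot decide whether the Kdr promoter was weaker in young WT Cre. The TSS region of Flt4 (chr11:49609263-49610452), classed as intron 1, had a peak in every library, at 76.3% and 68.8% in young WT Cre, from 26.9% to 29.6% in young EC-K4KO and from 42.9% to 57.6% in the old libraries. Flt1 thus had the strongest start of the 3 VEGF receptors in each library.

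Of the co-receptors, Nrp2 had a promoter peak (chr1:62702952-62703737) in all 7 libraries outside young WT Cre, with ranks from 12.7% to 26%, and in neither young WT Cre library. The TSS region of Nrp1 (chr8:128356902-128359371) had no peak in young WT Cre replicate 1 and young EC-K4KO replicate 1, and it ranked at 76.9% in young WT Cre replicate 2, 51.5% and 50.8% in young EC-K4KO and between 25.4% and 32.9% in the old libraries. Both co-receptor starts were thus least often called in young WT Cre, the group with the shortest lists.

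The angiopoietin receptors differed from each other at their starts. The Tie1 promoter (chr4:118489569-118490252) was among the stronger peaks throughout, at 14.4% and 24% in young WT Cre, 7.54%, 10.5% and 7.06% in young EC-K4KO, 3.48% and 5.64% in old WT Cre and 2.97% and 2.86% in the old EC-K4KO pair. The Tek promoter (chr4:94738880-94739890) was called in neither young WT Cre library and ranked between 42.7% and 73% in the other 7. The region over the Angpt2 start (chr8:18740472-18741756) had a peak in 7 libraries, at ranks from 46% to 96.5%, and none in young WT Cre replicate 1 and young EC-K4KO replicate 1. A list rank depends on how far down a list reaches, so it was not tested between groups.

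**Figure D3:**
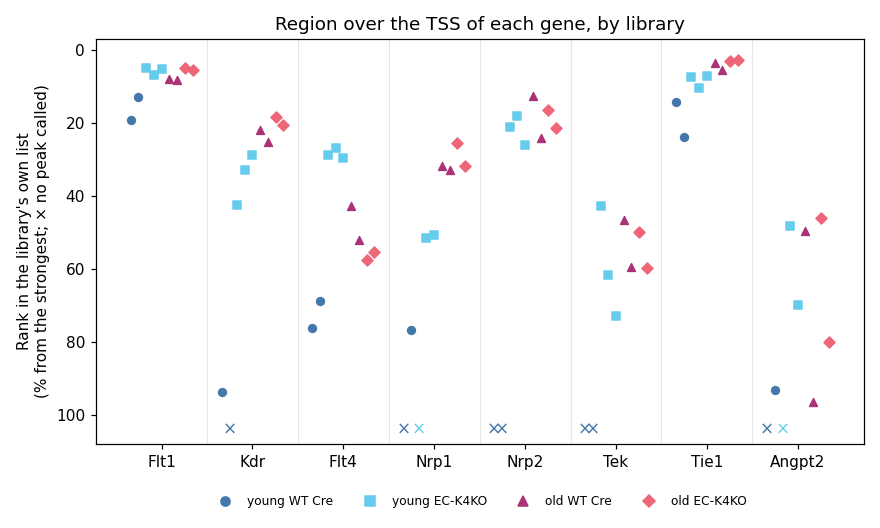
Rank of the region over the TSS of each gene (x axis) in the list of each library (y axis, percent from the strongest, strongest at the top), with 1 symbol per library coloured by group and a cross where no peak was called. Tie1 and Flt1 sit near the top in all 9 libraries, and Nrp2 and Tek have crosses in both young WT Cre libraries.

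Regions absent from the short lists were counted next. Against young WT Cre, 27 of the 129 regions had a peak in at least 2 young EC-K4KO libraries and in neither young WT Cre library (20.9%, against 10.2% of all 92495 regions), 41 met the same rule in old WT Cre (31.8%, against 17.4%) and 61 did so in old EC-K4KO (47.3%, against 26.6%). These shares are not on equal terms. Regions called in only 1 library cannot meet the rule, and they made up 57.3% of all regions but 31% of the 129. No region of the 8 genes had a peak in both young WT Cre libraries and none in one of the other groups, a loss that was also rare over all regions (0.00108% for young EC-K4KO as for old WT Cre, 0.00432% for the old EC-K4KO pair). With 6157 peaks per library, 20 regions belonged to the 8 genes and 1 met the rule in young EC-K4KO, the Nrp2 promoter (6.99% of 10089 regions did), while 0 did in old WT Cre (7.30%) and 0 did in old EC-K4KO (8.30%). The 1 region lost in equal lists was that of Angpt2 at -26.4 kb, in old WT Cre, where 4.29% of all regions were lost (against 1.75% for young EC-K4KO libraries and 5.19% for the old pair). The higher counts in whole lists thus moved with list length.

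Of the 129 regions, 12 (9.3%) were called in all 7 libraries outside young WT Cre and in neither young WT Cre library, as were 3640 of all regions (3.94%). They comprised the promoter and 2 introns of Nrp2, the promoter and 2 late introns of Tek, 3 introns of Flt1, an intron of Kdr, a region at 152 kb from the Kdr TSS and a region at -29.3 kb from the Angpt2 TSS. The best median list rank among them was that of the Nrp2 promoter (21.2%) and the weakest that of the Tek promoter (59.5%). Regions called in only 1 library, a larger part of all regions than of the 129, could not meet this rule either.

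To compare groups on equal terms, the 4872 regions with a peak in all 9 libraries were ranked against each other within each library, and a position is given in percent from the strongest. The test was limma on normal scores of these ranks, in SD units, where a higher score is a stronger region, with Benjamini-Hochberg adjustment over the 4872 regions and a threshold of 0.05. A position is relative, so a region can fall in rank while its fold over background does not. Regions that entered this comparison had to be called in the short young WT Cre lists, and 11 of 129 were, namely 5 of Flt1, 2 of Kdr and 1 each of Flt4, Tek, Tie1 and Angpt2. Nrp1 and Nrp2 had none.

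**Figure D4:**
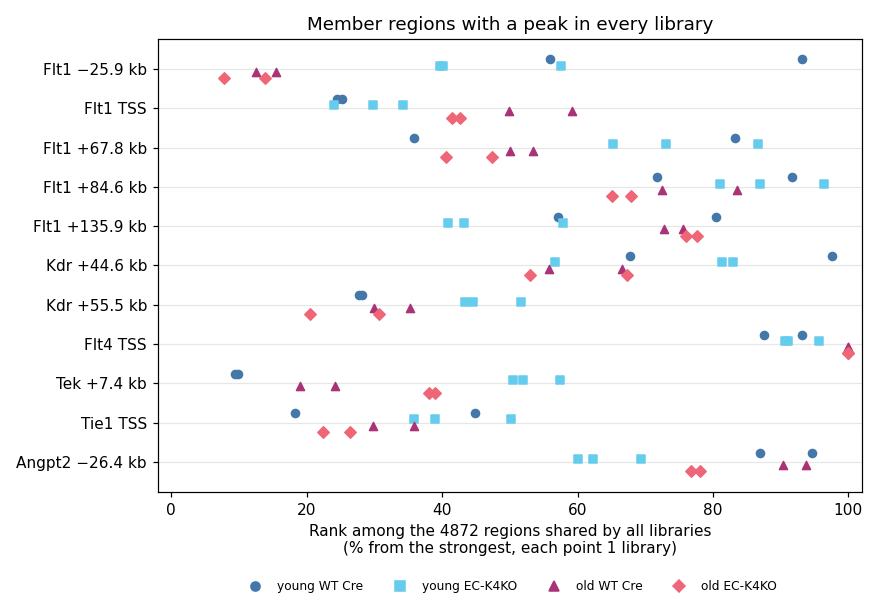
Position of the 11 regions that held a peak in every library (y axis, named by gene and by distance from the TSS) among the 4872 shared regions (x axis, percent from the strongest), with 1 symbol per library coloured by group. The Tek region at 7.4 kb lies near 10% in young WT Cre and past 50% in young EC-K4KO, and the Flt1 region at -25.9 kb lies below 16% in all old libraries.

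The question of Klf4 was addressed within each age. The Tek region in intron 1 (chr4:94746261-94747019) stood at 9.4% and 9.85% in young WT Cre, 50.5%, 57.4% and 52% in young EC-K4KO, 19% and 24.2% in old WT Cre and 38.1% and 38.9% in the old EC-K4KO pair. At either age, each EC-K4KO library ranked this region as weaker than each WT Cre library did. The difference, EC-K4KO minus WT Cre over both ages, was -0.94 (SE 0.14, 95% interval -1.25 to -0.63, limma adjusted p = 0.0245). The fold over background at this region was 7.6 and 8.12 in young WT Cre, 5.6, 8.44 and 8.33 in young EC-K4KO, 9.56 and 9.23 in old WT Cre and 10.2 and 10.5 in the old EC-K4KO pair. The fold itself was thus not lower throughout EC-K4KO, and with regions ranked by fold the difference was -0.85 and no longer passed (adjusted p = 0.127).

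The Angpt2 region at -26.4 kb (chr8:18767509-18768376) carries that name by the nearest TSS and lies in intron 12 of 13 of another gene, Mcph1. This region moved the other way. Its position was 94.6% and 87% in young WT Cre, 69.3%, 60% and 62.3% in young EC-K4KO, 90.3% and 93.8% in old WT Cre and 76.8% and 78.1% in the old EC-K4KO pair. EC-K4KO libraries ranked the region as stronger at both ages without overlap, by 0.84 (SE 0.16, 95% interval 0.48 to 1.20, limma adjusted p = 0.048). With regions ranked by fold, the difference was 0.65 and no longer passed (limma adjusted p = 0.212). Both regions thus passed the test on ranks by p, 1 in each direction, where 0.287% of the 4872 regions were higher and 0.472% lower in EC-K4KO. The median difference was 0.04 over the 11 regions and 0.01 over all regions. Neither call held when any of 6 libraries was left out, namely young EC-K4KO replicates 2 and 3 and each old library, with adjusted p between 0.0553 and 0.186 for Tek and between 0.107 and 0.275 for Angpt2 (limma), although the difference stayed between -0.99 and -0.82 for Tek and between 0.67 and 0.94 for Angpt2 over all 9 omissions.

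Taken by age, the difference in young mice was -1.39 at Tek (95% interval -1.81 to -0.96, limma adjusted p = 0.0135) and 1.01 at Angpt2 (0.53 to 1.49, adjusted p = 0.0333), against 2.38% of all regions lower and 1.77% higher in young EC-K4KO. Leaving out young EC-K4KO replicate 2 ended the call at Tek (limma adjusted p = 0.0587). The Angpt2 call ended without any 1 of 7 libraries, young WT Cre replicate 1, young EC-K4KO replicates 2 and 3 and the 4 old ones (limma adjusted p from 0.0545 to 0.103), and it ended when regions were ranked by fold (0.87, adjusted p = 0.137). In old mice the differences were -0.50 (-0.96 to -0.03) and 0.67 (0.14 to 1.20), and limma called 0 of 4872 regions, with 189 at an unadjusted p under 0.05, these 2 among them. The interaction of genotype and age was 0.89 at Tek (0.26 to 1.52, unadjusted p = 0.00965, limma adjusted p = 0.361) and -0.34 at Angpt2 (-1.06 to 0.39, adjusted p = 0.75). A difference in the effect of Klf4 between ages was therefore not shown at either region, and limma called 0 interactions among all 4872 regions (525 at an unadjusted p under 0.05).

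The other 9 regions did not pass the test for genotype. Their differences ranged from -0.29 at the Flt4 TSS region (95% interval -0.64 to 0.06) to 0.55 at the Flt1 region at -25.9 kb (-0.01 to 1.11). The latter rested on the young WT Cre pair, with 0.20 without replicate 1 and 0.87 without replicate 2, where it passed (limma adjusted p = 0.522 and 0.0149). At the Tie1 promoter the difference was -0.03 (-0.45 to 0.39) and at the Flt1 promoter 0.09 (-0.24 to 0.42). The Kdr region beyond the gene (chr5:75922581-75923297) stood at 28.2% and 27.7% in young WT Cre, 43.3%, 51.6% and 44.5% in young EC-K4KO, 30% and 35.3% in old WT Cre and 30.7% and 20.5% in the old EC-K4KO pair. Young EC-K4KO ranked it as weaker than each other group without overlap, but the difference from young WT Cre did not pass (-0.50, -0.94 to -0.05, limma adjusted p = 0.171).

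Age was compared within genotype. The Flt4 TSS region stood at 87.6% and 93.2% in young WT Cre and at 91.1%, 90.6% and 95.6% in young EC-K4KO. In old mice it was among the weakest of all shared regions, at 99.9% and 99.9% in WT Cre and 100% and 100% in EC-K4KO. Normal scores stretch small steps in rank at this end of the scale. The size of a difference there thus cannot be set beside one from the middle of the scale. The difference, old minus young, was -1.81 (SE 0.16, 95% interval -2.16 to -1.46, limma adjusted p = 0.000806), and it was -1.66 within WT Cre (adjusted p = 0.00923) and -1.97 within EC-K4KO (adjusted p = 0.00778). With peaks of q under 0.01 the difference within WT Cre was -0.70 and did not pass (limma adjusted p = 0.144). The fold over background there was 3.81 and 3.71 in young WT Cre, 3.37, 5.55 and 5.32 in young EC-K4KO, 2.96 and 3.62 in old WT Cre and 2.87 and 3.21 in the old EC-K4KO pair, so each old library lay below each young one except that old WT Cre replicate 2 exceeded young EC-K4KO replicate 1.

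The Flt1 region at -25.9 kb (chr5:147751537-147752176) rose with age. Its position was 93.2% and 55.9% in young WT Cre, 39.7%, 57.6% and 40.1% in young EC-K4KO, 15.5% and 12.5% in old WT Cre and 13.8% and 7.8% in the old EC-K4KO pair, and each old library ranked it as stronger than each young one. The difference was 1.53 (SE 0.26, 95% interval 0.96 to 2.09, limma adjusted p = 0.0039). It passed within WT Cre (1.91, 1.07 to 2.74, adjusted p = 0.0198) and missed the threshold within EC-K4KO (1.15, 0.39 to 1.91, adjusted p = 0.0763), and the interaction was -0.76 (-1.89 to 0.37, limma adjusted p = 0.638). Fold over background at this region was 3.78 and 4.85 in young WT Cre, 5.67, 8.61 and 9.52 in young EC-K4KO, 10.1 and 11.3 in old WT Cre and 11 and 11.2 in the old EC-K4KO pair, and the groups of young and old libraries did not overlap in fold either.

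The Flt1 promoter, in contrast, fell in rank with age. It stood at 24.4% and 25.2% in young WT Cre, 24%, 34.2% and 29.8% in young EC-K4KO, 59.2% and 49.9% in old WT Cre and 42.7% and 41.5% in the old EC-K4KO pair. The difference was -0.57 (SE 0.15, 95% interval -0.90 to -0.25, limma adjusted p = 0.0232), and it missed the threshold when old WT Cre replicate 1 or either old EC-K4KO library was left out (adjusted p from 0.0935 to 0.102). Its fold over background overlapped between ages, at 5.8 to 8.14 in young and 5.82 to 7.94 in old libraries. With the shared regions ranked by fold within each library, the difference was -1.10 and still passed (limma adjusted p = 0.00712). At Flt1, the promoter and the distal region thus changed in opposite directions relative to the other shared regions.

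In all, 3 of the 11 regions passed for age, 1 higher and 2 lower, where 9.77% of the 4872 regions were higher and 11.1% lower in old mice. A count of 3 is near what these shares give for 11 regions. On a scale of the percent of the whole list, which moves with list length, the Flt4 TSS difference shrank to -0.19 (limma adjusted p = 0.483) and that of the Flt1 promoter turned to 0.52 (adjusted p = 0.0803), while that of Flt1 -25.9 kb was 3.87 (adjusted p = 4.75e-06). Within WT Cre, 2 of the 11 passed, the Flt4 TSS region lower (3.82% of all regions were lower) and the Flt1 distal region higher (2.26%), and both calls were lost when either old WT Cre library was left out (limma adjusted p from 0.0519 to 0.132). Within EC-K4KO, 1 passed, the Flt4 TSS region (3.49% of all regions were lower and 3.02% higher), and this call was lost without either old EC-K4KO library (limma adjusted p = 0.0988 and 0.196). These comparisons share libraries with those of genotype.

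**Figure D5:**
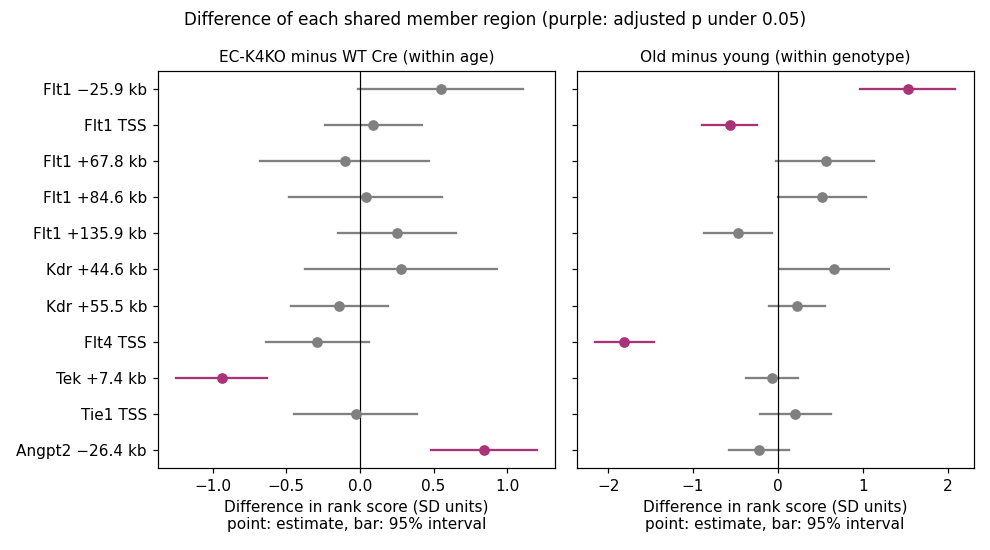
Difference in rank score (x axis, SD units, higher is stronger) of the 11 regions between genotypes within age (left) and between ages within genotype (right), with points for limma estimates and bars for their 95% intervals. Purple marks the regions past an adjusted p of 0.05, which are those of Tek (-0.94) and Angpt2 (0.84) for genotype and the Flt4 TSS (-1.81), Flt1 promoter (-0.57) and Flt1 -25.9 kb (1.53) regions for age.

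At 4 regions inside Flt1 and Kdr the age comparison depended on which young WT Cre library was used. In the Flt1 gene body, intron 10 stood at 83.2% in young WT Cre replicate 1 and 35.8% in replicate 2, intron 12 at 91.7% and 71.7%, and intron 18 at 57.1% and 80.4%. The Kdr region in exon 30, the last exon, stood at 67.7% and 97.5% in the same libraries. The age differences of these 4 regions were 0.56, 0.52, -0.47 and 0.66, and none passed the test (limma adjusted p = 0.149, 0.14, 0.0914 and 0.131). Without young WT Cre replicate 2 the 3 Flt1 regions passed, at 0.84, 0.68 and -0.61 (limma adjusted p = 0.00629, 0.0303 and 0.0157), whereas without replicate 1 they stood at 0.16, 0.23 and -0.28. The Kdr region passed without replicate 1 (0.94, limma adjusted p = 0.00912) and stood at 0.26 without replicate 2. It also passed when regions were ranked by fold (0.96, adjusted p = 0.0294), as Flt1 intron 18 did in lists of equal length (-1.12, limma adjusted p = 0.0149), although its difference ranked by fold was 0.00. The Tie1 promoter ranged from 18.2% to 50.1% over the 9 libraries with no difference past the test for age (0.20, -0.21 to 0.62).

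Apart from the TSS, the region with the best median list rank was Tek intron 1 (5.23%), followed by Flt1 at -25.9 kb (7.27%), Kdr at 55.5 kb (8.16%) and Angpt2 at -26.4 kb (16.6%). For Nrp2 it was an intronic region at 44.6 kb (25.2%, 7 libraries), for Flt4 one at 22.8 kb (25.2%, 5 libraries) and for Tie1 an intergenic one at -10.6 kb (36.1%, 6 libraries). At Tek, the intronic region outranked the promoter in each library in which both were called.

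Promoters with a pattern most like those of Tie1 and Flt1 were sought among 3067 promoter-TSS regions shared by all 9 libraries, by the Euclidean distance of the 9 rank scores. Nearest to the Tie1 promoter were those of Rwdd4a (0.419) and Zfp865 (0.571), against a median distance of 2.4. Nearest to the Flt1 promoter were those of Kdm4c (0.425) and Dnaja1 (0.467), against a median of 2.44. The 2 nearest lie below the median by construction, so these distances do not show that the likeness is unusual.

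Other genes of the pathway were followed from a list of 37, made up of 7 ligands, 11 membrane partners, 12 signalling genes and 7 genes induced by VEGF. Of the ligands, 0 had a promoter peak in young WT Cre and 1 to 3 in the other libraries (Vegfa and Vegfc in 6 libraries each, Pgf in 2), and within the 6157 strongest peaks 0 had one in any library. Of the 7 VEGF-induced genes, 4 or 5 had a promoter peak in each library, with Dll4, Nr4a1, Rcan1 and Adamts1 called in all 9. Membrane partners with a promoter peak numbered 3 to 6 of 11 per library, and signalling genes 4 to 7 of 12. The share of all genes with a promoter peak was not computed, so these counts have no background beside them. The 37 genes had 27 shared regions at 17 genes, of which limma called 0 for genotype (4 at an unadjusted p under 0.05) and 7 for age, 3 higher and 4 lower. With 20.9% of the 4872 regions called for age, 7 of 27 is near the background. The promoter of Nck1, an adaptor bound by activated Kdr, stood between 6.34% and 14.7% in young and between 33.7% and 47.7% in old libraries (95% interval of the difference -1.35 to -0.64, limma adjusted p = 0.0037). The region at 327 bp from the TSS of Plcg1, the phospholipase that relays Kdr signals, differed by -1.67 (-2.18 to -1.15, adjusted p = 0.00263), whereas an intronic region of the same gene at 35228 bp differed by 0.64 (0.24 to 1.04, adjusted p = 0.0325). The other 4 were higher near Plxnd1 (0.91) and in an intron of Plxna2 (0.92), both semaphorin receptors, and lower near the starts of Sema3c (-1.05), a semaphorin, and Gab1 (-0.66), a docking adaptor.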

How the data were processed

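Omni-ATAC-seq was measured in 9 libraries of brain ECs. The authors trimmed adapters (TrimGalore), aligned to mm10 (Bowtie2), kept well-mapped, non-duplicate pairs and called broad peaks in MACS2. Peak names show 1 library per list. The score deposited with each peak equals 10 times its -log10 q, the deposited fold is a ratio of signal to local background, and the deposited -log10 p ranked the peaks. The lists of the authors end near a q of 0.1. Gene names and classes came from the deposited HOMER annotation. All peaks lay within GRCm38 chromosomes, and GENCODE M21 gave TSS positions and gene bodies.

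Peaks sharing 1 bp or more were merged. Ranks of regions with a peak in all 9 libraries became normal scores and were fitted in limma 3.58.1 (R 4.3.3) with a term for each group, for contrasts of genotype within age and age within genotype, their interaction and single contrasts. The fit was tested on simulated data. Alternatives were ranking by fold, q under 0.05 or 0.01, an overlap of 100 bp, equal list lengths, whole-list percent ranks, assignment by gene body, a replicate block, omission of each library and, chosen after seeing the data, ranks taken separately for promoter and other regions. The members and lists were chosen with earlier results of these data known. Named were all 8 genes, each region over a TSS or in all 9 libraries, the best other region of each gene, regions missing from young WT Cre but called in all other libraries, and the 2 promoters nearest in pattern. Read counts per library were not used here, so depth is unknown and the authors' test on counts was not run.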

Additional observations from a re-analysis of the deposited data

How the results depend on the processing

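The age calls at the Flt4 TSS region and at Flt1 -25.9 kb kept their direction when each of the 9 libraries was left out (differences from -1.88 to -1.60 and from 1.04 to 1.80) and stayed past the threshold. The whole-list percent scale moves with list length by its construction: the median shift of all regions was 1.33 for age and 0.88 for genotype (log2), and limma then called 3092 regions for genotype and 4002 for age, 9 of the 11 members' regions in each. On that scale the genotype differences turned to 0.55 at the Flt4 TSS, 0.89 at the Tie1 promoter, 0.75 at Kdr 55.5 kb and 0.74 at Flt1 67.8 kb. The age differences turned to 1.15 at Tek, 0.75 at Flt1 136 kb, 0.52 at the Flt1 promoter and 0.89 at Angpt2, and that of the Flt4 TSS within WT Cre to 0.62. Those at Tek, both Flt1 regions and Angpt2 lie below the median shift.

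Ranked by fold, limma called 2 regions for genotype and 0 of the members' regions (779 and 2 at an unadjusted p under 0.05). For age it called 1373 regions and 4 of the members' regions. These were the Flt4 TSS (-1.43), the Flt1 promoter (-1.10), Flt1 -25.9 kb (1.09) and Kdr 44.6 kb (0.96). Signs of uncalled differences then turned, for genotype to 0.05 at Tie1, -0.12 at Flt1 84.6 kb and -0.22 at the Flt1 promoter, and for age to -0.08 at Kdr 55.5 kb, 0.00 at Flt1 136 kb and -0.13 at Flt1 67.8 kb. The cause was not tested. Lists of equal length gave 20 member regions, 7 of them in every library, without the Flt4 TSS, Angpt2, Flt1 84.6 kb and Kdr 44.6 kb regions. Of the 3305 shared regions then tested, 2 were called for genotype (1 of the members, Tek) and 646 for age. Peaks with q under 0.01 left 7 member regions in every library, without Flt1 -25.9 kb, Angpt2, Flt1 84.6 kb and Kdr 44.6 kb, and 1 genotype call among them, and the Flt4 TSS differences became 0.40 for genotype and -0.70 for age within WT Cre. Ranks taken separately by class gave 22 genotype calls. Assignment by gene body gave 83 member regions.

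Leaving out 1 library gave 0 to 405 genotype calls over all regions and 0 to 3 among the members, and 269 to 1888 and 2 to 8 for age. These counts are not on equal terms, since the number of shared regions tested changed with the omission. It was 4872 in the main fit, 7440 without young WT Cre replicate 1 and 5386 without replicate 2. The members' regions tested were 11, 12 and 14 in the same order. Genotype differences then ranged from -0.21 to 0.15 at Tie1, from -0.08 to 0.66 at Kdr 44.6 kb, from -0.12 to 0.27 at Flt1 84.6 kb, from 0.20 to 0.87 at Flt1 -25.9 kb and from -0.36 to 0.23 at Flt1 67.8 kb. An arm left with 1 library was assumed to vary like the others.

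No pairing of the libraries by the replicate numbers of the labels was seen: the 12 same-numbered pairs had correlations of deviations from -0.0133 to 0.118, with 1 over 0.1. Between groups of 2 libraries the same value appears for both replicate numbers by construction, so the 12 values are not all separate. They cannot decide whether the libraries were paired. With a replicate block, limma called 0 regions for genotype (712 at an unadjusted p under 0.05) and 0 members' regions, and 3 members' regions for age. The young genotype contrasts then did not pass either (-1.40 at Tek and 0.99 at Angpt2, adjusted p = 0.0638 and 0.108, limma). Depth, and with it how far each list could reach, is not known.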
